A study of Mus musculus with 8 samples.

Results

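The mitochondrial ribosomal protein genes were taken as every gene whose symbol starts with Mrpl or Mrps followed by a number, which gave 78 of the 19348 genes in the table, 49 named Mrpl (large subunit) and 29 named Mrps (small subunit). Liver and epididymal white adipose tissue (eWAT, the fat pad attached to the epididymis) were taken from male C57BL/6 mice aged 12 weeks that ate a normal diet and had been fasted for 16 h. The mice were Crtc1-/-, a whole-body knockout made by injecting Cas9 and guides against exons 2 and 4 of Crtc1, or their Crtc1+/+ littermates from heterozygous crosses. Each tissue and genotype had 2 libraries, 8 in all, and the comparison asks how loss of Crtc1, a coactivator of the transcription factor CREB, changes gene expression in each tissue. Libraries held 16560070 to 19721464 counts, of which the 78 members took 54156 to 74092. Since whole tissue was sequenced, a change in the number of cells of a type and a change in RNA per cell cannot be told apart.

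Mitochondria keep a small genome that encodes core subunits of the respiratory chain, and a ribosome of their own translates it. The RNA of that ribosome comes from the mitochondrial genome, whereas all of its proteins are encoded in the nucleus, made in the cytosol and imported. Some of the proteins have counterparts in the bacterial ribosome, and others were added during the evolution of mitochondria, mostly on the surface and at the exit of the tunnel through which the nascent protein leaves. By these classes the members comprised 30 large subunit proteins with a bacterial counterpart, 21 mitochondria-specific large subunit proteins, 16 small subunit proteins with a bacterial counterpart and 10 mitochondria-specific small subunit proteins. Mrps18a and Mrps30, named for the small subunit, sit in the large subunit and were counted there. The remaining 1, Mrps36, is now assigned to the 2-oxoglutarate dehydrogenase complex of the citric acid cycle.

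Several checks of the libraries bear on every result. In eWAT, 28 genes that mark epididymis took 10.4% and 11.8% of counts in the libraries labelled Crtc1+/+ against at most 0.00596% in those labelled Crtc1-/-. Gpx5, a glutathione peroxidase secreted by the epididymis, stood at 40801 and 50642 CPM (counts scaled to the size of the library) in the labelled Crtc1+/+ eWAT libraries and at 1.81 and 7.01 CPM in the others. Hepatocyte markers (17 genes) took 12.5% of counts in replicate 2 of eWAT labelled Crtc1-/-, 1.13% in replicate 1, 0.806% and 0.218% in labelled Crtc1+/+ eWAT and 22.8 to 26.2% in liver. Adipocyte markers (14 genes) took 4.70% and 2.24% of counts in labelled Crtc1-/- eWAT against 0.263% and 0.403% in labelled Crtc1+/+ eWAT, and 0.0239 to 0.0382% in liver. In the same order, 8 endothelial markers took 0.424% and 0.243% against 0.0326% and 0.0319%, 7 macrophage markers 0.0772% and 0.0366% against 0.0227% and 0.0117%, and 11 sperm and testis markers 0.0168% and 0.00347% against 0.175% and 0.0823%. Brown adipocyte markers took at most 0.00765% of counts in any library, and Ucp1, which defines brown fat, was at 0 to 0.440 CPM. Crtc1 itself was not lower in the libraries labelled Crtc1-/-, with 58.5 and 33.6 CPM against 32.6 and 33.7 CPM in eWAT and 22.1 and 17.98 CPM against 11.7 and 9.86 CPM in liver. A count over the whole gene does not see a loss of some exons, so genotypes are given throughout as the libraries are labelled.

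Some of the nuclear genes of mitochondrial translation are known targets of ETS factors such as GABPA, of NRF1 and of YY1, and CRTC1 acts through CREB at cyclic AMP response elements (CRE). RefSeq promoters (GRCm38.p6, 250 bases before to 50 after the start site) were found for 69 of the 78 members, 75 promoters in all. They were searched on both strands for CCGGAAG (ETS), GCATGCGC (NRF1), AAGATGGC (YY1) and TGACGTCA (CRE), and matches to different motifs did not overlap in any member promoter. An ETS match stood in 34.7% of the member promoters, against 14.8% of the 15519 promoters of genes tested in eWAT and 8.86% of all 32851 promoters. YY1 matches stood in 16.0% of member promoters (3.72% of genes tested in eWAT, 2.75% of all), and NRF1 matches in 10.7% (4.43% and 2.71%). The CRE, in contrast, was found in 2.67% of member promoters against 2.64% of genes tested in eWAT and 1.79% of all. Any of the 4 motifs was present in 52.0% of member promoters, 23.0% of those of genes tested in eWAT and 14.7% of all. A match is a string of letters in the window and was not shown to be bound.

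**Figure D1:**
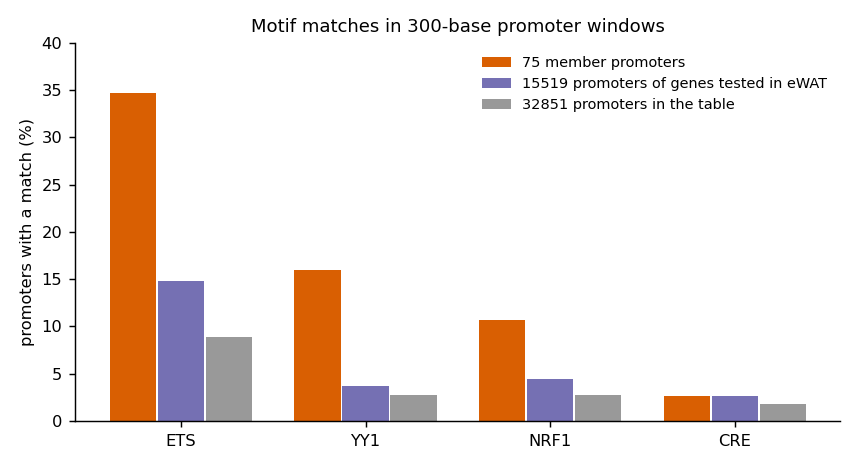
Percentage of promoter windows with a match to each motif on the vertical axis, for the 75 member promoters, promoters of genes tested in eWAT and all promoters. The member bars for ETS, YY1 and NRF1 (34.7%, 16.0% and 10.7%) stand above both others, and the CRE bars (2.67%, 2.64% and 1.79%) are nearly level.

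Upstream sequences are shown for 3 members with the lowest p in the eWAT genotype comparison among those with a match before the start site, leaving out Mrpl34, which also ranked among them and whose sequence is not shown here, and for both members with a CRE, which were chosen after their matches were seen. Each runs 5′ to 3′ on the gene's strand over the 250 bases before the start, with the matches in capitals.
Mrps18a, chr17:46110754-46111003, plus strand, ETS match 26 bases before the start: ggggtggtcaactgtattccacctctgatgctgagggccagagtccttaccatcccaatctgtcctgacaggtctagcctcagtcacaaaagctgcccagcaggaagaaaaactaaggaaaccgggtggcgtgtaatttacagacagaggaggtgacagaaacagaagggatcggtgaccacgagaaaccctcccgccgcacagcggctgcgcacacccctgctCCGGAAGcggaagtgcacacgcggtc
Mrpl9, chr3:94443086-94443335, plus strand, overlapping NRF1 matches on the opposite strands 28 and 26 bases before the start: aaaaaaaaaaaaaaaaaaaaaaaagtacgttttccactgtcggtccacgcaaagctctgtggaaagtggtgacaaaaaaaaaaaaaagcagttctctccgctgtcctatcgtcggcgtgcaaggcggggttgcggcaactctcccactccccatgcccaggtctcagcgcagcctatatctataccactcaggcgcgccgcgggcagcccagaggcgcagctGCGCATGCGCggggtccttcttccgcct
Mrpl27, chr11:94653541-94653790, plus strand, ETS match 55 bases before the start: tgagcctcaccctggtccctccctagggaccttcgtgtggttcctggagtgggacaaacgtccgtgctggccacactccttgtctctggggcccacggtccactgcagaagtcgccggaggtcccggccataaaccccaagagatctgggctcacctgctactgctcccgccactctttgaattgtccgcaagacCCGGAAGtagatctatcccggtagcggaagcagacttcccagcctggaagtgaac
Mrpl16, chr19:11770165-11770414, plus strand, CRE 49 bases before the start: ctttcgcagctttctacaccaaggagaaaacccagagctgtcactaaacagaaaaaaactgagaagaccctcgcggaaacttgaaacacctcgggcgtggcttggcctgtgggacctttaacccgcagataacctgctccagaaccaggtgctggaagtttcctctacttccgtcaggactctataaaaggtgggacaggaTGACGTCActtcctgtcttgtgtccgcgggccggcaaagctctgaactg
Mrpl49, chr19:6057756-6058005, minus strand, CRE 154 bases before the start: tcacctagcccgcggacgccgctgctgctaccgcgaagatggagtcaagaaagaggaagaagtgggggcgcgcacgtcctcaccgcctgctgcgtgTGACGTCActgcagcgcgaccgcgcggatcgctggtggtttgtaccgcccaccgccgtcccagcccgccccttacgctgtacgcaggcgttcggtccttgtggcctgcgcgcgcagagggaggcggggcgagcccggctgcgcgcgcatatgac
Neither CRE member passed a genotype test. Mrpl16, a large subunit protein with a bacterial counterpart, had a log2 fold change of 0.60 ± 0.35 (SE) in eWAT and 0.02 ± 0.25 in liver, and Mrpl49, a mitochondria-specific large subunit protein, 0.26 ± 0.26 and -0.04 ± 0.24. The start sites of Mrps11 (plus strand) and Mrpl46 (minus strand) lay 42 bases apart on chromosome 7, at 78783131 and 78783089, so that a small and a large subunit gene shared 141 bases of promoter window. Mrps11 had log2 fold changes of 0.11 ± 0.32 in eWAT and -0.25 ± 0.25 in liver, and Mrpl46 of 0.22 ± 0.33 and -0.35 ± 0.26, none of which passed the test.

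All 78 members were expressed in every library, from 2.09 to 445 FPKM (fragment counts scaled by transcript length and library total) and from 77 to 3714 counts. The median member had 38.0 to 50.2 FPKM in eWAT and 29.1 to 34.7 FPKM in liver. Taken over the 8 libraries, the highest medians belonged to Mrps21 (263 FPKM), Mrpl52 (252), Mrpl20 (154), Mrpl12 (153) and Mrpl54 (135). The lowest were Mrpl1 (2.645 FPKM), Mrpl19 (3.79), Mrps25 (4.2), Mrpl35 (7.19) and Mrps31 (7.34). FPKM between genes depends on the transcript length the authors used, which was not checked. The order of the members was alike within a tissue (Spearman's rho over the 78 members, as a description, 0.91 to 0.98 between eWAT libraries and 0.95 to 0.99 between liver libraries) and less alike between tissues (0.80 to 0.94). The highest between-tissue values all belonged to replicate 2 of eWAT labelled Crtc1-/- (0.91 to 0.94), the library with 12.5% hepatocyte marker counts. As a share of all counts, the members took 0.400% and 0.356% in labelled Crtc1-/- eWAT, 0.384% and 0.316% in labelled Crtc1+/+ eWAT, 0.302% and 0.327% in labelled Crtc1-/- liver and 0.317% and 0.282% in labelled Crtc1+/+ liver. The genotype groups overlapped in both tissues.

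In eWAT, 70 of the 78 members had a positive fold change in the labelled Crtc1-/- group, and their median was 0.47 on the log2 scale against -0.05 over the 15391 genes tested. The shift was spread thinly, and only Mrpl37, a mitochondria-specific protein of the large subunit, passed the test, in the opposite direction. Called at an adjusted p under 0.05 (edgeR quasi-likelihood, Benjamini-Hochberg) were 0 members higher, where 6.65% of all genes were, and 1 lower, where 5.54% were. At an unadjusted p under 0.05 there were 18 members higher (16.2% of all genes) and 1 lower (17.1%), and DESeq2 called 12 higher (15.3% of all genes) and 1 lower (14.7%). The 18 depended on the processing. They became 21 with DESeq2, 17 by median-ratio factors, 6 by upper-quartile scaling and 0 by library size. On quantile-normalized FPKM they became 3 and 0 (pseudocounts 1 and 0.1). Both labelled Crtc1-/- libraries lay above both labelled Crtc1+/+ libraries for 58 members (31.3% of all genes) and below for 3, Mrpl1, Mrpl21 and Mrpl37 (35.4% of all genes). How far the members stood above 0 depended on the scaling. By library size alone 48 members were higher with a median of 0.16, by library size with the epididymis genes left out (chosen after seeing the data) 37 were higher with a median of -0.0080. The members' median lay 0.51 to 0.52 above that of all genes under each of these scalings. A scaling moves all genes nearly alike, so it can hardly change this distance. The distance was 0.66 with no expression filter, 0.42 at a mean count of at least 50 and 0.38 to 0.68 without 1 library. On quantile-normalized FPKM the distance was 0.05 to 0.08. Without replicate 2 of the labelled Crtc1-/- group the median was 0.30, with 68 members higher. The marker shares of epididymis, adipocytes, endothelium and hepatocytes given above differ between the same libraries, and their part in the shift was not tested.

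**Figure D2:**
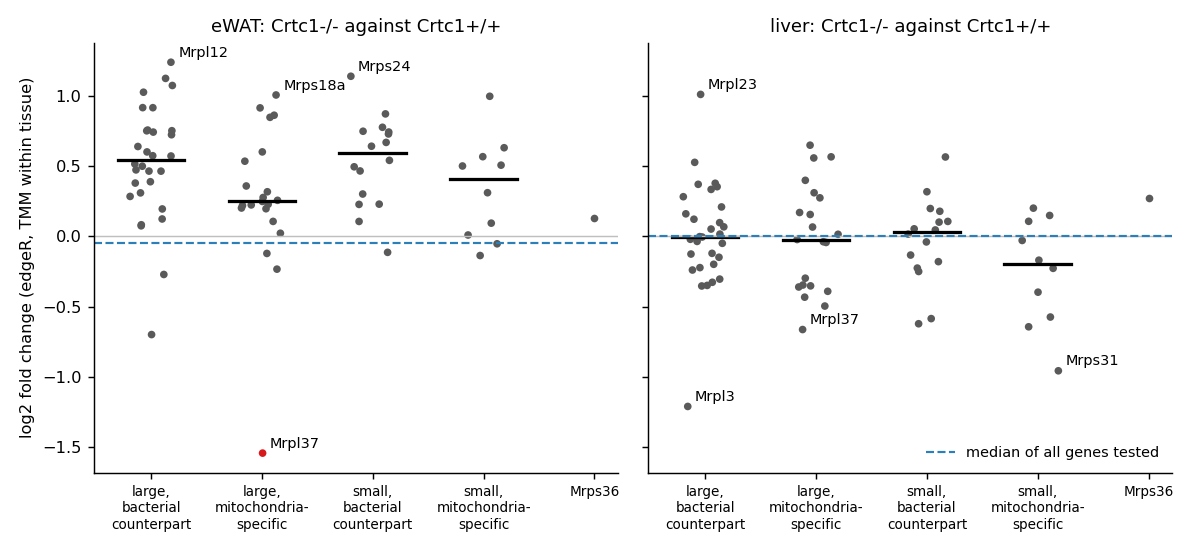
Log2 fold change of each of the 78 members (points, red where the adjusted p is under 0.05) by class, for eWAT on the left and liver on the right. Black bars are class medians and the dashed line is the median of all genes tested; in eWAT all 4 class medians lie above it (0.25 to 0.59), with Mrpl37 at -1.55 below every other member, and in liver the class medians lie between -0.20 and 0.03.

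Mrpl37 (chr4:107055874-107066866, minus strand, GRCm38) stood at 59.9 and 54.8 CPM in labelled Crtc1-/- eWAT and at 179 and 156 CPM in labelled Crtc1+/+ eWAT. The groups lay far apart, and the fold change was 0.342 (log2 -1.55 ± 0.27 SE, adjusted p = 0.0325). In FPKM it was 43.6 and 32.9 against 150 and 127. Mrpl37 thus made up 1.47% and 1.26% of all member counts in the labelled Crtc1-/- libraries and 5.28% and 5.41% in the labelled Crtc1+/+ libraries. In liver it took 1.07% and 0.668% against 1.37% and 1.40%, so that the labelled Crtc1+/+ eWAT libraries, which also held the epididymis transcripts, were the only ones above 1.5%. Whether the epididymis cells carried the Mrpl37 transcripts was not tested. The call was lost in 3 of 15 alternatives, with an unchanged direction. These were the replicate block and the fits without replicate 1 or replicate 2 of the labelled Crtc1+/+ group. The log2 fold change ranged from -2.02 to -1.44 over the alternatives. A neighbour on the other strand, Cyb5rl, shares 37 bases with Mrpl37 and had 269 and 220 counts in labelled Crtc1-/- eWAT and 551 and 571 in labelled Crtc1+/+ eWAT, where Mrpl37 had 1090 and 790 against 3714 and 3012. Both genes stood higher in the labelled Crtc1+/+ libraries, and how reads in the overlap were counted was not tested.

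The most positive fold changes, none of which passed the test, were those of proteins with a bacterial counterpart. Mrpl12, the stalk protein that recruits translation factors and also binds the mitochondrial RNA polymerase, had 110 and 159 CPM in labelled Crtc1-/- eWAT against 66.8 and 47.0 CPM (log2 1.24 ± 0.34, adjusted p = 0.0791). The groups did not overlap, and replicate 2, with its hepatocyte transcripts, was the higher library. Mrps24, a protein at the messenger RNA entry of the small subunit, had 58.3 and 66.9 CPM against 33.9 and 22.8 CPM (1.14 ± 0.33, adjusted p = 0.0835). Mrpl15 had 49.5 and 77.3 CPM against 30.8 and 27.2 CPM (1.13 ± 0.34, adjusted p = 0.0927). Mrpl34 and Mrpl20 followed at 1.08 ± 0.32 (adjusted p = 0.0887) and 1.03 ± 0.28 (adjusted p = 0.0752). For Mrpl20 the values were 122 and 119 CPM against 66.6 and 51.6 CPM, close within each group. At the other end, after Mrpl37, stood Mrpl1 (5.33 and 8.47 CPM against 10.02 and 12.4 CPM, log2 -0.70 ± 0.46, adjusted p = 0.323) and Mrpl21 (14.7 and 18 CPM against 20.1 and 19.3 CPM, -0.27 ± 0.33). Mrpl52 and Mrps31 were at -0.23 ± 0.30 and -0.14 ± 0.48, with overlapping groups.

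By class, the median log2 fold change in eWAT was 0.55 for large subunit proteins with a bacterial counterpart (28 of 30 higher), 0.25 for mitochondria-specific large subunit proteins (18 of 21), 0.59 for small subunit proteins with a bacterial counterpart (15 of 16) and 0.41 for mitochondria-specific small subunit proteins (8 of 10). Differences between the classes were not tested. Among the proteins at functional centres, Mrpl10 at the base of the stalk had a log2 fold change of 0.57 ± 0.25 and its neighbour Mrpl11 of 0.38 ± 0.28. At the tunnel exit Mrpl45, which ties the ribosome to the inner membrane, was at 0.92 ± 0.30 (56.7 and 73.9 CPM against 38.2 and 30.9 CPM), and Mrpl44 at 0.28 ± 0.30. Mrps12 of the decoding centre was at 0.67 ± 0.29, and Mrpl58, which releases peptides from stalled ribosomes, at 0.36 ± 0.28. The adjusted p of these 6 lay between 0.111 and 0.541. The 3 paralogs of bacterial S18 stood at 1.01 ± 0.29 (Mrps18a), 1.0 ± 0.36 (Mrps18b) and 0.54 ± 0.33 (Mrps18c). Mrps18a overlaps 6871 bases of Rsph9, a gene of motile cilia on the other strand, which had 201 and 24 counts in labelled Crtc1-/- eWAT and 314 and 105 in labelled Crtc1+/+ eWAT. Mrps36, outside the ribosome, was at 0.13 ± 0.29.

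In liver the members were split evenly between the genotypes. Fold changes were positive for 37 of the 78 and negative for 41, and their median was -0.012 on the log2 scale against 0.0039 over the 11707 genes tested. Called were 0 higher and 0 lower, where 0.0598% and 0.0256% of all genes were, and at an unadjusted p under 0.05 there were 2 higher (9.73% of all genes) and 5 lower (7.6%). DESeq2 called 1 higher (1.81% of all genes) and 0 lower (1.41%). Groups did not overlap for 20 members higher (25.8% of all genes) and 25 lower (26.4%). Without replicate 1 of the labelled Crtc1-/- group, edgeR called 2 higher (6.92% of all genes) and 4 lower (5.59%). The most positive value was that of Mrpl23, a protein beside the tunnel exit, at 61.2 and 70.6 CPM against 34.7 and 30.5 CPM (log2 1.01 ± 0.25, adjusted p = 0.134). The groups did not overlap, and Mrpl23 in eWAT was at 0.47 ± 0.30 (adjusted p = 0.319). The most negative was that of Mrpl3, a protein of the large subunit core, at 8.75 and 4.49 CPM against 14.7 and 16.1 CPM (-1.21 ± 0.34, adjusted p = 0.166). Mrps31, a mitochondria-specific small subunit protein, followed with 9.33 and 7.47 CPM against 12.2 and 20.5 CPM (-0.96 ± 0.32, adjusted p = 0.211).

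Mrpl37 stood in the same direction in liver, at 32.3 and 21.1 CPM against 44.2 and 40.6 CPM, but did not pass the test (-0.66 ± 0.28, adjusted p = 0.269). Mrps23 was at -0.64 ± 0.26 and Mrps12 at -0.62 ± 0.29. At the upper end stood Mrpl54 at 0.65 ± 0.25, Mrpl52 and Mrps21 at 0.57 ± 0.28 and 0.57 ± 0.26, and Mrpl57 at 0.56 ± 0.29. The longest annotated transcripts measured 604, 463 and 488 nucleotides for Mrpl54, Mrpl52 and Mrps21, 2877 for Mrpl57, 3972 for Mrpl3 and 1515 for Mrps31. Over all 78 members Spearman's rho of the liver fold change with transcript length was -0.22, given as a description across genes (-0.04 over all genes tested). Both Mrps2, with 46.1 and 48.5 CPM against 73.3 and 68.7 CPM (-0.59 ± 0.24, adjusted p = 0.264), and Mrpl27, with 50.3 and 56.8 CPM against 36.7 and 37.6 CPM (0.53 ± 0.24, adjusted p = 0.296), had groups that did not overlap.

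The difference of the genotype effect between the tissues was tested in 1 fit of all 8 libraries over 15587 genes. It was positive, that is more upward in eWAT than in liver, for 59 members, with a median of 0.47 on the log2 scale against -0.21 over all genes. Only Mrps30 passed the test. Called were 1 member higher (3.78% of all genes) and 0 lower (3.16%), and at an unadjusted p under 0.05 there were 17 higher (13.1%) and 1 lower (13.8%). The 17 became 21 by median-ratio factors, 6 by library size, and 14 and 5 on quantile-normalized FPKM (pseudocounts 1 and 0.1). By library size without epididymis genes there were 1 higher and 5 lower. DESeq2 called 4 higher (8.43% of all genes) and 0 lower (6.5%). Mrps30 (chr13:118380110-118387252, minus strand), a large subunit protein despite its name, had 58.8 and 50.5 CPM against 30.6 and 30.0 CPM in eWAT and 23.1 and 23.8 CPM against 28.9 and 30.7 CPM in liver. The libraries labelled Crtc1-/- were thus both higher in eWAT and both lower in liver, and the interaction was 1.11 ± 0.26 (adjusted p = 0.0487). Neither tissue alone passed the test (0.85 ± 0.27, adjusted p = 0.107, and -0.35 ± 0.24, adjusted p = 0.472). The interaction kept its sign under all 18 alternatives but missed the threshold in 14 of them (adjusted p 0.0355 to 0.272 over all), among them each of the 8 fits that left out 1 library. Next by p stood Mrps18a (1.29 ± 0.32, adjusted p = 0.0565), Mrps23 (1.19 ± 0.30, adjusted p = 0.0599) and Mrpl40 (1.07 ± 0.30, adjusted p = 0.079), named after their values were seen. Mrpl12 had the largest value of all members, 1.51 ± 0.52 (adjusted p = 0.128).

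**Figure D3:**
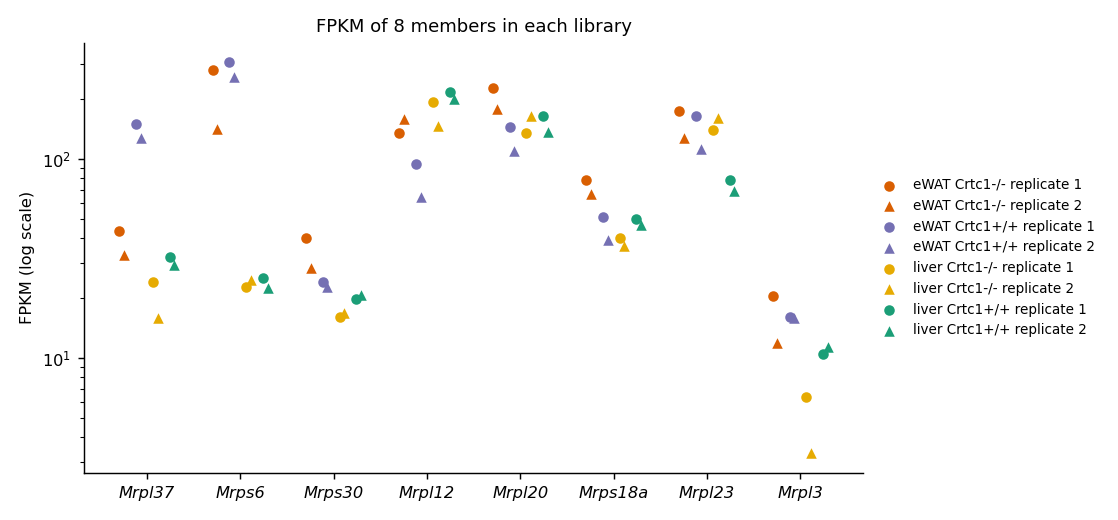
FPKM on a log axis of 8 members in each of the 8 libraries, coloured by tissue and labelled genotype, with circles for replicate 1 and triangles for replicate 2. Mrpl37 in the labelled Crtc1+/+ eWAT libraries (150 and 127) stands apart from its other libraries (16.0 to 43.6), and Mrps6 in all eWAT libraries (142 to 307) from liver (22.6 to 25.3).

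Between the tissues the members differed far more than between the genotypes. Relative to other genes they were lower in eWAT than in liver, in labelled Crtc1+/+ mice by a median log2 of -1.11 where all genes had 0.61, and in labelled Crtc1-/- mice by -0.84 where all genes had 0.20. In labelled Crtc1+/+ mice 59 members were called lower (19.8% of all genes) and 2 higher (35%), and in labelled Crtc1-/- mice 39 lower (8.89%) and 1 higher (18.9%). The 2 comparisons contrast different libraries, but they come from 1 fit of all 8 libraries and share its filter, scaling and estimate of the spread. The sign against 0 depended on the scaling. By library size alone the medians were 0.29 and 0.28, while all genes then stood at 2.0 and 1.33. Called by that scaling were 17 members higher (68.7% of all genes) and 7 lower (7.21%) in labelled Crtc1+/+ mice, and 18 higher (45.1%) and 0 lower (0.674%) in labelled Crtc1-/- mice. The members' distance from all genes was -1.71 to -1.72 and -1.04 to -1.06 under the TMM, median-ratio, upper-quartile and library-size scalings. These move all genes nearly alike and can hardly change the distance. With no expression filter it was -2.02 and -1.07, and at a mean count of at least 50 it was -1.34 and -0.85. On quantile-normalized FPKM it was -0.36 to -0.42 and -0.24 to -0.30. In labelled Crtc1-/- mice the count called lower depended strongly on single libraries, also on labelled Crtc1+/+ liver libraries outside this comparison. Without 1 library the median was -1.03 to -0.66.

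**Figure D4:**
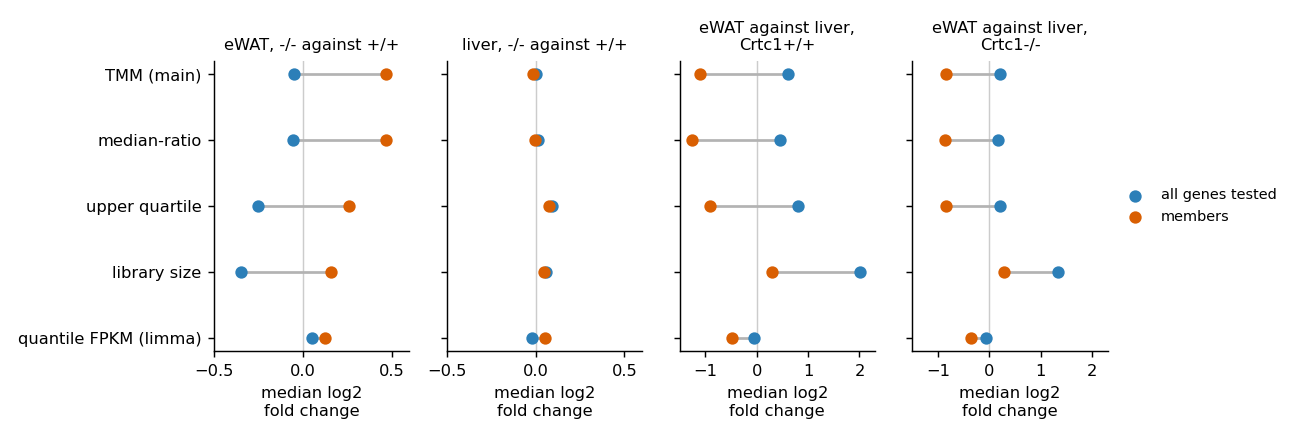
Median log2 fold change of the members (orange) and of all genes tested (blue) in 4 comparisons under 5 ways of scaling the libraries. The orange point stays right of the blue point in eWAT by genotype and left of it in both tissue comparisons, and in the tissue comparisons the orange point crosses from below to above 0 under library-size scaling (0.29 and 0.28).

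Mrps6, the small subunit counterpart of bacterial S6, was the member that went furthest against the others. It measured 282 and 142 FPKM in labelled Crtc1-/- eWAT, 307 and 258 FPKM in labelled Crtc1+/+ eWAT and 22.6 to 25.3 FPKM in the 4 liver libraries. The tissues were far from overlapping, with an eWAT level 4.48 times that of liver in labelled Crtc1+/+ mice (log2 2.16 ± 0.27, adjusted p = 0.00135) and 3.97 times in labelled Crtc1-/- mice (1.99 ± 0.26, adjusted p = 0.00276). The call held under all 18 alternatives in both, with log2 values of 1.99 to 3.73 and 1.73 to 3.15. By FPKM it ranked 3 of the 78 members in eWAT and 49 in liver. Mrps6 (chr16:92058336-92112227, plus strand) overlaps 29138 bases of Slc5a3, a myo-inositol transporter gene on the same strand. Slc5a3 had 99 to 534 counts in eWAT and 16 to 26 in liver, against 1626 to 3560 and 267 to 315 for Mrps6, and was below Mrps6 in every library. The lowest Mrps6 value in eWAT was in replicate 2 of the labelled Crtc1-/- group. Between genotypes Mrps6 was at -0.11 ± 0.35 in eWAT and -0.04 ± 0.26 in liver.

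The members furthest below liver in labelled Crtc1+/+ eWAT were Mrpl12 (log2 -2.79 ± 0.39, adjusted p = 0.00208), Mrpl15 (-2.76 ± 0.34, adjusted p = 0.00138), Mrps18b (-2.65 ± 0.37, adjusted p = 0.00195), Mrps2 (-2.47 ± 0.33, adjusted p = 0.00176) and Mrps5 (-2.38 ± 0.42, adjusted p = 0.00457). In CPM scaled over the 8 libraries, Mrpl12 stood at 45.2 and 30.9 in labelled Crtc1+/+ eWAT, 64.6 and 107 in labelled Crtc1-/- eWAT and 178 to 272 in liver. It was lower in eWAT under all 18 alternatives. The second member called higher in labelled Crtc1+/+ mice was Mrpl37 (0.77 ± 0.27, adjusted p = 0.0483), a call lost in 9 of 18 alternatives. At the upper end without a call stood Mrps25 (0.13 ± 0.22), Mrpl33 (0.01 ± 0.27) and Mrpl41 (-0.02 ± 0.21), whose signs changed with the scaling. In labelled Crtc1-/- mice the lowest were Mrps5 (-1.66 ± 0.41), Mrpl38 (-1.62 ± 0.37), Mrps27 (-1.60 ± 0.29), Mrpl14 (-1.52 ± 0.32) and Mrpl16 (-1.51 ± 0.28), all called with adjusted p of 0.00983 to 0.0272. After Mrps6 the highest were Mrpl3 (0.58 ± 0.33), Mrps23 (0.22 ± 0.21), Mrpl9 (0.05 ± 0.25) and Mrps9 (0.03 ± 0.21), none of which was called and of which Mrpl9 and Mrps9 changed sign.

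The members whose level in liver was highest relative to eWAT were also those that set replicate 2 of labelled Crtc1-/- eWAT above replicate 1. Across the 78 members the difference between these replicates (log2(FPKM + 1)) had a Spearman's rho of 0.69 with the difference of liver from eWAT in labelled Crtc1+/+ mice, against 0.50 over 15587 genes, and the 2 differences share no library. For the replicates of labelled Crtc1+/+ eWAT and the tissue difference in labelled Crtc1-/- mice the values were -0.22 and 0.02. Replicate 2 was the library with 12.5% hepatocyte marker counts and 65412 CPM of Alb, the serum albumin gene, where replicate 1 had 522 CPM. The part of hepatocyte transcripts in the difference between the replicates was not tested. Mrps5 had 28.5 CPM in replicate 1 and 60.2 CPM in replicate 2, against 26.9 and 24.7 CPM in labelled Crtc1+/+ eWAT. Its log2 fold change of 0.78 ± 0.44 rested on replicate 2, with replicate 1 close to the labelled Crtc1+/+ libraries. Replicate 2 exceeded replicate 1 in FPKM for 21 of the 78 members.

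**Figure D5:**
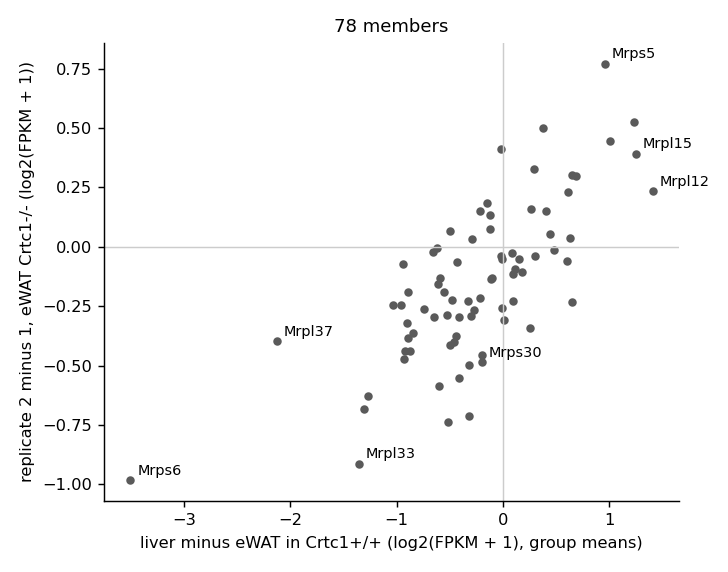
Each point is 1 of the 78 members. The horizontal axis is the liver level minus the eWAT level in labelled Crtc1+/+ mice and the vertical axis replicate 2 minus replicate 1 of labelled Crtc1-/- eWAT, both in log2(FPKM + 1); members with more transcript in liver lie higher (Spearman's rho 0.69), Mrps6 at the lower left and Mrps5 at the top.

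The other genes of mitochondrial translation were read beside the members. Of all genes tested, 48.5% had a positive fold change in eWAT and 50.3% in liver. Called higher and lower were 6.65% and 5.54% of all genes in eWAT and 0.0598% and 0.0256% in liver. Of 5 further mitoribosomal proteins whose symbols follow another scheme, 4 had a positive fold change in eWAT (median log2 0.25) and 3 in liver (0.26), and 0 were called. Aurkaip1, a small subunit protein, had 143 and 161 CPM against 104 and 77.9 CPM in eWAT (0.74 ± 0.29, adjusted p = 0.156). Gadd45gip1, a large subunit protein, was at 0.63 ± 0.42 and Dap3, a GTP-binding small subunit protein, at 0.22 ± 0.30. Among 25 factors of ribosome assembly and rRNA modification, 19 had a positive value in eWAT (median 0.54) and 8 in liver (median -0.28), with 0 called in either. Examples were Rbfa, which matures the small subunit, at 0.64 ± 0.27 in eWAT and 0.01 ± 0.25 in liver, and the helicase Dhx30 at 0.64 ± 0.29 and -0.71 ± 0.25. Mpv17l2, which binds the large subunit, was at 0.48 ± 0.36 and 0.02 ± 0.27. The interaction was called for 3 of the 25, where 3.78% of all genes were called upward and 3.16% downward. All 3 were more upward in eWAT and were named after their values were seen. They were Trub2, a pseudouridine synthase (2.54 ± 0.36, adjusted p = 0.0131), Ddx28, a helicase (1.83 ± 0.34, adjusted p = 0.028), and Mtg1, a GTPase, both of large subunit assembly (1.95 ± 0.39, adjusted p = 0.0325). Trub2 had 39.5 and 31.0 CPM against 12.6 and 17.7 CPM in eWAT and 5.19 and 4.44 CPM against 13.4 and 12.2 CPM in liver, without overlap in either tissue.

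Of 15 translation factors, 11 were positive in eWAT (median 0.22) and 2 in liver (median -0.38), with 0 called. Tufm, the elongation factor that brings aminoacyl-tRNA, was at 0.56 ± 0.28 and -0.63 ± 0.32. Oxa1l, which inserts the products into the membrane, was at 0.18 ± 0.27 and -0.07 ± 0.24, and Lrpprc, which stabilises the messenger RNAs, at 0.02 ± 0.54 and -0.49 ± 0.26. The interaction was called for 3, likewise named afterwards, where 3.78% of all genes were called upward and 3.16% downward. The ribosome recycling factor Mrrf (1.56 ± 0.31, adjusted p = 0.0342) and Taco1, an activator of Cox1 translation (2.43 ± 0.52, adjusted p = 0.0394), were upward. Slirp, the RNA-binding partner of Lrpprc, was downward (-1.44 ± 0.31, adjusted p = 0.0389). All 22 genes of mitochondrial aminoacyl-tRNA synthetases and amidotransferases had a negative value in liver (median -0.40, all genes 0.00). However, 0 were called lower (0.0256% of all genes) and 4 had an unadjusted p under 0.05 (7.6% of all genes lower). In eWAT 15 of the 22 were positive (median 0.23) and 0 were called. Kars and Gars, which also serve the cytosol, were at -0.23 ± 0.26 and -0.34 ± 0.24 in liver, and Fars2 at -0.38 ± 0.26. Vars2 was the 1 of them with a called interaction (1.61 ± 0.34, adjusted p = 0.0389), where 3.78% of all genes were called in this direction.

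Of the genes that replicate, transcribe and process mitochondrial nucleic acids, 14 were tested. In eWAT 8 were positive (median 0.08), and Polg, the catalytic subunit of the mitochondrial DNA polymerase, was called higher. It had 86.1 and 74.2 CPM against 33.1 and 29.8 CPM (1.35 ± 0.27, adjusted p = 0.0419) and -0.17 ± 0.27 in liver. Hsd17b10, a dehydrogenase that is also a subunit of the mitochondrial tRNA-processing enzyme, was at 1.77 ± 0.51 in eWAT without a call, with 224 and 520 CPM against 128 and 90.2 CPM and 375 to 765 CPM in liver. Elac2, which trims the 3′ ends of tRNAs, was at 0.41 ± 0.28 and -0.83 ± 0.29. Of 9 regulators of nuclear genes for mitochondria, 7 were positive in eWAT (median 0.34) and 2 in liver (median -0.29), with 0 called. Esrra, a nuclear receptor that drives them with PGC-1 coactivators, was at 0.97 ± 0.29 (adjusted p = 0.0917) and -0.30 ± 0.27, Yy1 at -0.35 ± 0.34 and -0.02 ± 0.31, and Pprc1 at 0.34 ± 0.34 and -0.29 ± 0.29. The messenger RNAs that the mitochondrial ribosome itself translates were not analysed here.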

How the data were processed

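Messenger RNA of liver and eWAT was sequenced, with 2 libraries per tissue and labelled genotype. Per gene, the authors deposited estimated counts without normalization and FPKM values, scaled by the authors for transcript length and library total. The submitters' processing notes name HISAT, Bowtie2 and the build GRCm38.p6, with no roles. The counting tool, its strand setting and the annotation are not given in the sources used here. Reads shared between similar or overlapping genes may therefore be split in ways that were not checked. Overlaps with another gene of the table were found for 20 members, and 6 annotated pseudogenes with a matching symbol were not among the table's genes.

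Counts were rounded, filtered by edgeR's filterByExpr (edgeR 4.0.16, R 4.3.3), scaled by TMM within each tissue or over all 8 libraries, and tested by the quasi-likelihood test, two-sided, with p-values adjusted by Benjamini-Hochberg across the genes of each fit and a threshold of 0.05. All 78 members passed the filter in every fit. SE was taken as the size of the log2 fold change over the root of the F statistic. CPM are TMM-scaled within a tissue unless stated. DESeq2 1.42.0 and limma 3.58.1 on quantile-normalized log2(FPKM + 1) or log2(FPKM + 0.1), the kind of fit the study used, were alternatives, with other filters, scalings, a replicate block and leaving out each library. Scripts were tested on simulated data. With 2 against 2 an exact permutation test cannot give a p below 0.333, so none is given. The labels call replicates separate samples, and p-values measure only the spread between them. The labels do not say whether liver and eWAT of a number came from 1 mouse. The study's methods describe 2 mice of each genotype from which liver and eWAT were taken, so the tissues may share mice. The main fits of all 8 libraries took the libraries as independent. Deviations of same-numbered libraries correlated at -0.08 to 0.27, and the numbers were not taken as pairs.

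Gene coordinates and overlaps are RefSeq on GRCm38, gene strands are GENCODE M21 by symbol, and promoters are RefSeq on GRCm38.p6. Motif positions are distances of the match's first base from the start site. The members and lists were chosen with earlier results of these data known. Named with values are members called in a genotype comparison or the interaction, the 5 highest and 5 lowest in each genotype and tissue comparison and in FPKM, the stalk, tunnel and decoding proteins, the Mrps18 paralogs, Mrps30 and Mrps36, and the 3 most abundant genes of each pathway list. Any other name was chosen after its values were seen. The pathway lists were matched by current symbol, and some older symbols were not found. Sample columns left unmapped numbered 0.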

Additional observations from a re-analysis of the deposited data

Results flagged for a closer look

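In the main fit, the genotype effect on Mrps30, a large subunit protein of the mitochondrial ribosome, differed between eWAT and liver by a test of the difference itself. The interaction was 1.11 on the log2 scale (SE 0.26, adjusted p = 0.0487, edgeR quasi-likelihood test), with both labelled Crtc1-/- libraries higher in eWAT and both lower in liver. Mrps30 was the only 1 of the 78 members past the threshold, where 3.78% of all genes were called in this direction. The interaction kept its sign under all 18 alternatives, but the call was lost in 14 of them. The marker shares of epididymis, hepatocytes and adipocytes differ between the same eWAT libraries, and their part in the difference was not tested.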

How the results depend on the processing

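Depth was sufficient for the members (77 counts or more), and 2 libraries a group limit what can be called. Of 701 values of named members under an alternative, 585 kept direction and side of the threshold, 53 lost a call, 34 gained one and 29 changed sign. The causes of the changes below were not tested. DESeq2 called higher 15.3% of all genes in eWAT, 1.81% in liver and 8.43% in the interaction. A count called without a share over all genes shows only how calls depend on the fit.

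In eWAT, members called higher (0) became 12 with DESeq2 and 8 with all 8 libraries in 1 fit, and 0 to 2 without 1 library. Members called lower (1) became 0 under the replicate block and 0 to 1 without 1 library. The median (0.47) was 0.12 and 0.13 on FPKM (pseudocounts 1 and 0.1), 0.26 by upper quartile, 0.16 by library size, -0.0080 by library size without epididymis genes (chosen after seeing the data) and 0.30 to 0.61 without 1 library. In liver, members called higher became 1 with DESeq2 and 0 to 2 without 1 library, members called lower 0 to 4 without 1 library, and the median (-0.012) 0.076 by upper quartile and -0.09 to 0.05 without 1 library.

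For the interaction, members called higher (1) became 4 with DESeq2, 3 and 0 on FPKM, 2 by median-ratio factors, and 0 with no filter, by upper quartile, by library size, by library size without epididymis genes and under the replicate block, and 0 to 5 without 1 library. Members called lower (0) became 2 and 1 on FPKM. The median (0.47) was 0.57 with DESeq2, 0.14 and 0.15 on FPKM, 0.36 at a mean count of at least 50, 0.26 by upper quartile, 0.14 by library size, 0.57 by median-ratio factors, -0.028 by library size without epididymis genes and 0.31 to 0.66 without 1 library.

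For eWAT against liver in labelled Crtc1+/+ mice, members called higher (2) became 1 with DESeq2, with no filter, by median-ratio factors and under the replicate block, 6 on FPKM with pseudocount 1, 17 by library size and 27 without epididymis genes, and 1 to 2 without 1 library. Members called lower (59) became 34 and 27 on FPKM, 7 by library size, 4 without epididymis genes, and 36 to 62 without 1 library. Without replicate 1 of labelled Crtc1+/+ liver or replicate 2 of labelled Crtc1+/+ eWAT they were 36 and 37. The median (-1.11) was -1.25 with DESeq2 and by median-ratio factors, -0.48 and -0.50 on FPKM, -0.95 at a mean count of at least 50, -0.91 by upper quartile, 0.29 by library size, 0.46 without epididymis genes and -1.28 to -1.0 without 1 library. In labelled Crtc1-/- mice, members called higher (1) became 18 by library size and 18 without epididymis genes. Members called lower (39) became 24 and 13 on FPKM, 0 by library size, 0 without epididymis genes, and 0 to 40 without 1 library, with 16 and 15 without replicate 1 or 2 of labelled Crtc1+/+ liver. The median (-0.84) was -0.36 and -0.37 on FPKM, 0.28 by library size, 0.28 without epididymis genes and -1.03 to -0.66 without 1 library.

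Signs changed for 7 named values. Without 1 library, Mrpl52 in eWAT ranged from -0.41 to 0.021 and Mrps31 from -0.67 to 0.24. For eWAT against liver in labelled Crtc1+/+ mice, Mrpl41 was 0.39 and 0.41 on FPKM, 0.13 at a mean count of at least 50, 0.17 by upper quartile, 1.38 by library size, 1.54 without epididymis genes and -0.20 to 0.14 without 1 library. Mrpl33 was -0.13 with DESeq2 and by median-ratio factors, -0.016 under the replicate block, and -0.30 to 0.25 without 1 library. Mrps25 was -0.015 with DESeq2 and by median-ratio factors, -0.23 and -0.28 on FPKM, and -0.071 to 0.34 without 1 library. In labelled Crtc1-/- mice, Mrps9 was -0.0033 with DESeq2, -0.0031 by median-ratio factors and -0.12 to 0.20 without 1 library, and Mrpl9 -0.23 to 0.40 without 1 library.

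The replicate block gave 0 members called in eWAT, where the correlation of same-numbered libraries was -0.08, and, beyond those given, changed no count of members past the adjusted threshold by over 1.5 times. At an unadjusted p under 0.05 it took the members lower in the interaction from 1 to 2. The members' share of all FPKM was 0.475 to 0.706%, above their share of counts. With only the bases before the start site, matches stood in 24.0% (ETS), 10.7% (NRF1), 5.33% (YY1) and 2.67% (CRE) of member promoters. Among promoters of genes tested in eWAT these shares were 11.5%, 3.7%, 1.71% and 2.26%.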

Other observations

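The sum of member counts hid the changes inside it. Large subunit proteins with a bacterial counterpart made up 41.0% and 41.7% of member counts in labelled Crtc1-/- eWAT, 36.3% and 35.2% in labelled Crtc1+/+ eWAT and 42.0 to 44.2% in liver. Mitochondria-specific large subunit proteins made up 27.3% and 26.6%, 32.8% and 32.8%, and 25.6 to 27.8%. The labelled Crtc1+/+ eWAT libraries, in which Mrpl37 alone took 5.28% and 5.41%, stood apart from the other 6 in both shares. Mitochondria-specific small subunit proteins took 11.7% and 11.8% in labelled Crtc1+/+ liver and 10.3% and 10.4% in labelled Crtc1-/- liver. These are values with 2 libraries a group and no test.

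In eWAT labelled Crtc1+/+, the difference of replicate 2 from replicate 1 went with the length of the longest annotated transcript (Spearman's rho 0.34 over the 78 members and 0.43 over 15120 genes with a length, as a description). The eWAT genotype difference had values of -0.06 and -0.10.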
